A study of Mus musculus with 18 samples.

Results

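The host was compared in tumors grown from the same knock-down cells in mice with and without lymphocytes. The cells were K7M2, a mouse osteosarcoma line that came from a Balb/c mouse, and they carried an shRNA against *Atrx*, the gene of a chromatin remodeler (ATRXKD). Of 18 sequenced tumors, 9 were used: the 4 ATRXKD tumors of Balb/c mice (mice 56, 58, 59 and 60) and the 5 ATRXKD tumors of NSG mice (mice 26 to 30). They were chosen by host and shRNA alone. Genes were kept where the mean over these 9 tumors was at least 0.1 FPKM (a level per length of transcript, counted in fragments per kilobase and relative to all fragments of a sample), with the genes of chromosomes X and Y left out, which gave 14202 of the 20878 genes in the matrix.

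By the study's methods, the mice were females of 6 to 8 weeks and received 500000 cells under the skin, and each tumor came from a different animal. Balb/c mice share the strain of the K7M2 line. NSG mice are on the NOD background and carry the scid allele of *Prkdc* and a null allele of *Il2rg*, so that they lack T, B and NK cells but keep myeloid cells. Strain, immune deficiency and any difference in sex or housing coincide with the host and cannot be told apart here. All 9 tumors came from 1 cell line with 1 knock-down. By the methods, mice were caged in groups of 5, and the cells were assigned at random by cage. The labels give no cage, so tumors of a group may share 1, and cage could not be modeled. The 9 remaining tumors came from K7M2 cells with a control shRNA (ATRXCT), 4 in Balb/c and 5 in NSG mice, and serve below as separate tumors in which the same host contrast was measured.

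RNA was sequenced from ribo-depleted, stranded libraries with paired reads of 75 bp. The steps by which low values rise gave a rough depth of 18400000 to 22700000 fragments in the Balb/c tumors and 20650000 to 25250000 in the NSG tumors, and spike-in RNA took 1.44% to 2.59% of the values. *Atrx*, the target of the shRNA, was listed at 21.5, 7.88, 9.11 and 17.3 FPKM in Balb/c tumors 56, 58, 59 and 60 and at 8.42, 16.4, 8.59, 8.88 and 8.59 FPKM in NSG tumors 26 to 30. The hosts overlapped (log2 difference 0.36, exact permutation test, two-sided, p = 0.365), and in the ATRXCT tumors *Atrx* lay between 10.3 and 26 FPKM in Balb/c and between 11.6 and 24.4 FPKM in NSG hosts. In NSG hosts 4 of the 5 ATRXKD tumors were below every ATRXCT tumor, and tumor 27 was not. In Balb/c hosts tumors 58 and 59 were below every ATRXCT tumor, and tumors 56 and 60 were not. The *Atrx* transcript is long (10244 nt), and values rose along transcript length in tumors 56, 60 and 27 (slopes 0.239, 0.127 and 0.133). In the other ATRXKD tumors the slopes were −0.139 to −0.042. With this trend removed the host difference of *Atrx* was 0.14 (adjusted p = 0.613 in limma). The part of the trend in the order of these tumors was not tested. The host labels were checked by the T cell gene *Cd3e*, which was listed above 0 in all 4 Balb/c tumors and at 0 in all 5 NSG tumors. *Il2rg*, the common gamma chain gene, was at 26.2, 34.2, 33.1 and 29.7 FPKM in Balb/c tumors and between 5.5 and 9.09 FPKM in NSG tumors (log2 difference 2.01, exact permutation test, p = 0.0159, the smallest possible here). *Prkdc* overlapped between hosts (log2 difference 0.21, adjusted p = 0.632), and a level of its transcript does not check the scid allele, a point mutation. Of the bone-forming cell genes, *Runx2* lay between 4.01 and 11.1 FPKM, whereas *Sp7* and *Bglap* reached no more than 0.195 and 0.339 FPKM in any of the 9 tumors.

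The 4 Y-linked genes *Ddx3y*, *Eif2s3y*, *Kdm5d* and *Uty* stood apart by host. *Eif2s3y* was listed at 0 in every Balb/c tumor and at 10.8, 7.09, 6.44, 9.96 and 5.64 FPKM in NSG tumors 26 to 30, although the methods state female mice. The methods also list K7M2 as a female line. In the ATRXCT tumors *Eif2s3y* was at 0 in every Balb/c tumor and between 10.9 and 14.4 FPKM in NSG tumors. The host contrast in ATRXCT tumors therefore carries the same difference. Y-linked transcripts therefore moved with the host as completely as the T cell genes did, and their part in the results below cannot be told apart from that of the host. These genes are not members of the set described here.

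T cells and NK cells kill target cells with granules that hold perforin, which opens the membrane, and granzymes, which are proteases that start cell death. Activated T and NK cells also release interferon gamma, and cells that receive it make guanylate-binding proteins, the chemokine *Cxcl9* and, in antigen-presenting cells, MHC class II. In bulk tumors, fewer cells of a type and less RNA per cell cannot be told apart.

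Differences are given below as Balb/c minus NSG on the log2 (FPKM + 1) scale, with the standard error (SE) from limma. On this scale the change of genes with low FPKM is understated. Genes were called with a Benjamini-Hochberg adjusted p under 0.05 in limma and a difference of at least 2-fold. In the ATRXKD tumors, 161 genes (1.13% of the 14202 tested) were higher and 35 genes (0.246%) were lower in Balb/c hosts, which is 82.1% of all calls on the higher side. The median difference over all genes tested was −0.02. At an unadjusted p under 0.05, 1400 genes (9.86%) were on the higher and 931 (6.56%) on the lower side. Of these genes, 118 of the 161 and 19 of the 35 were called in each of the 9 fits that left out 1 tumor. The volcano plot shows both sides.

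**Figure D1:**
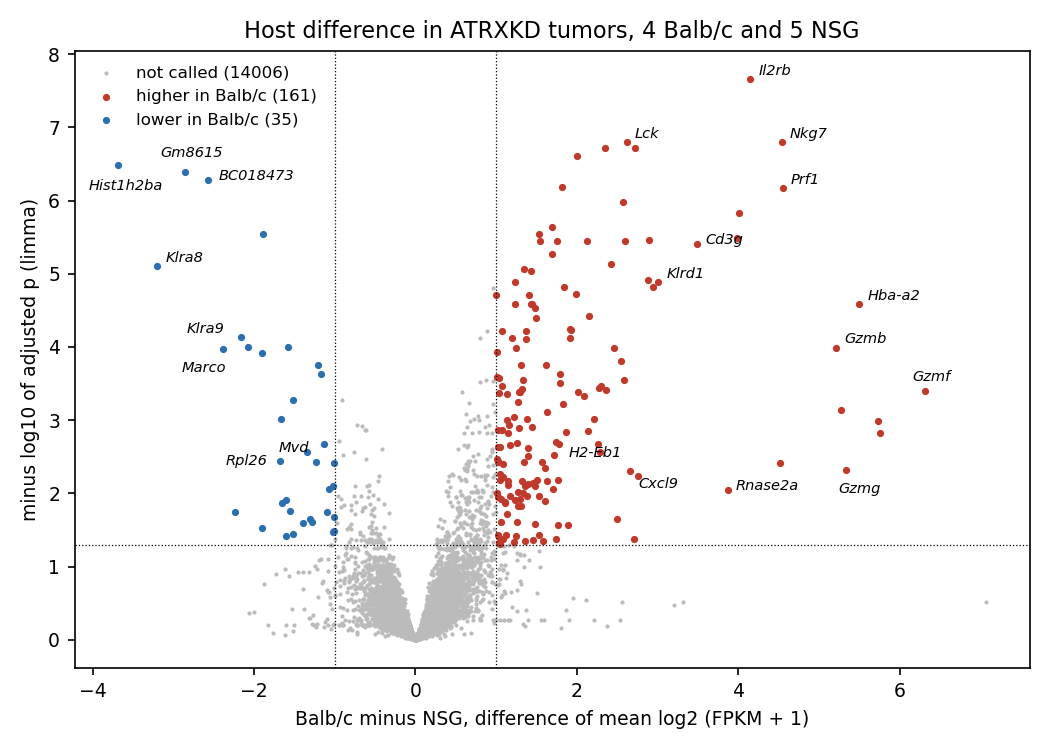
Difference of mean log2 (FPKM + 1) between Balb/c and NSG ATRXKD tumors (x axis) against minus log10 of the adjusted p in limma (y axis), with 1 point per gene and dotted lines at a 2-fold difference and an adjusted p of 0.05. The 161 genes higher in Balb/c (red) reach 6.32 with *Gzmf*, and the 35 lower genes (blue) reach −3.68 with *Hist1h2ba*.

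The largest called differences were in the granule genes of killer cells. Of 11 cytotoxic effector genes, 9 were higher in Balb/c hosts and 0 lower, with a median difference of 1.91 beside −0.02 over all genes. *Gzmf*, a granzyme gene, was at 15.4, 241, 212 and 46.7 FPKM in Balb/c tumors 56, 58, 59 and 60 and was listed at 0 in all 5 NSG tumors. Tumors 58 and 59 were several times higher than tumors 56 and 60, and the hosts did not overlap. The difference was 6.32 (SE 0.68, adjusted p = 0.000399), and since NSG tumors were listed at 0 it depends on the pseudocount of 1 and gives no fold. *Gzmb*, the granzyme most studied in T and NK cells, was at 12.6, 85.9, 73.7 and 26.5 FPKM in Balb/c tumors and at no more than 0.204 FPKM in NSG tumors (difference 5.22, SE 0.47, adjusted p = 0.000102). *Prf1*, which encodes perforin, was at 14.5, 33.7, 27.9 and 19.1 FPKM, against a highest NSG value of 0.0246 FPKM (difference 4.55, SE 0.21, adjusted p = 6.7e-07). *Nkg7*, a granule membrane protein of killer cells, followed the same order among the hosts, at 17.1 to 29.5 FPKM in Balb/c and 0 to 0.175 FPKM in NSG tumors (difference 4.54). *Fasl*, the ligand of the death receptor Fas, lay between 1.77 and 2.55 FPKM in Balb/c tumors and did not exceed 0.107 FPKM in NSG tumors (difference 1.55, adjusted p = 3.61e-06).

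Granzyme genes sit next to each other on chromosome 14 of mm10. All 6 that were tested between positions 56117619 and 56262260, *Gzme*, *Gzmd*, *Gzmg*, *Gzmf*, *Gzmc* and *Gzmb*, were higher in Balb/c tumors, with differences from 4.52 to 6.32. *Gzmd* was at 10, 192, 167 and 22.9 FPKM in Balb/c tumors and listed at 0 in every NSG tumor, and *Gzmg* was at 5.67, 160, 142 and 16.6 FPKM and also listed at 0 in NSG. All 6 had the same order of tumors, with 58 highest, then 59, 60 and 56. *Gzmn*, of the same locus, was at most 0.0617 FPKM in any tumor and was not tested. *Gzma*, which lies alone on chromosome 13, was at 11.2, 187, 144 and 24 FPKM in Balb/c tumors and at no more than 0.0566 FPKM in NSG tumors (difference 5.73, adjusted p = 0.00103). At most 6.83% of the 75 nt windows of any of these 7 genes' GENCODE transcripts also occur in another gene, so few of their reads can be shared.

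The promoters of *Gzmf* and *Gzmb*, from 250 bases before to 50 after the start (RefSeq, GRCm38.p6), are shown because both genes lie in this cluster and move together. Capitals mark TGTGGT or its other strand ACCACA, the core of the motif of Runx factors, which are known in killer T cells. The window of *Gzmf* is chr14:56211358-56211657 and that of *Gzmb* is chr14:56262285-56262584, both on the minus strand. They were chosen after the values were seen.
*Gzmf*: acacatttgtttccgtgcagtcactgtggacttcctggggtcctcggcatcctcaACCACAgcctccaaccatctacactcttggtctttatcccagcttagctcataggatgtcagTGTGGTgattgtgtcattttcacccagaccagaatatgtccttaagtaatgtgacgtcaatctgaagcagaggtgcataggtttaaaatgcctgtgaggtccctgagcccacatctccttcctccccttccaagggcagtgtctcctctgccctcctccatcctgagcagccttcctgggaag
*Gzmb*: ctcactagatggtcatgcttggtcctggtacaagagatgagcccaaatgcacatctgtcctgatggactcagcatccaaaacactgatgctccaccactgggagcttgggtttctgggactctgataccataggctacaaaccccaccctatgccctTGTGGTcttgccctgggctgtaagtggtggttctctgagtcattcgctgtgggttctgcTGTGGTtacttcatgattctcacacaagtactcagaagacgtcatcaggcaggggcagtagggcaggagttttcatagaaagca
The motif begins 133 and 195 bases before the start of *Gzmf* and 93 and 34 bases before the start of *Gzmb*. It occurs in 16.8% of all 32817 promoters of this length. Of the 161 genes higher in Balb/c, 104 had a promoter entry and 38 of these (36.5%) held it, and of the 35 lower genes 21 had an entry and 2 (9.5%) held it. A match of letters is a description and no test was made of it.

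T cell genes were higher in Balb/c hosts as a group. Of the 20 listed genes, 14 were called higher and 0 lower, and 18 did not overlap between hosts (5.04% of all genes were higher in every Balb/c than in any NSG tumor). The median difference was 1.41. *Cd3e*, a chain of the T cell receptor complex, was at 8.53, 2.54, 3.78 and 6.33 FPKM in Balb/c tumors and listed at 0 in all 5 NSG tumors (difference 2.55, adjusted p = 0.000154). *Cd3g* and *Cd3d*, the neighbors of *Cd3e* on chromosome 9, lay at 6.05 to 15.3 and 3.14 to 4.92 FPKM in Balb/c tumors, against highest NSG values of 0.0482 and 0.243 FPKM. *Lck*, the kinase that starts signaling from this receptor, was even across the Balb/c tumors at 6.04, 5.96, 6.99 and 5.7 FPKM and did not exceed 0.231 FPKM in NSG tumors (difference 2.62, SE 0.09, adjusted p = 1.6e-07). *Cd8a*, the coreceptor of killer T cells, was at 5.23, 1.52, 2.78 and 6.87 FPKM, with tumors 56 and 60 above 58 and 59, and at 0.0317 to 0.0679 FPKM in NSG tumors (difference 2.14, adjusted p = 0.00143). Without tumor 56, *Cd5* fell below the 2-fold threshold (difference 0.87, adjusted p = 7.12e-05).

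NK cell receptor genes moved in both directions. Of 11 listed genes, 7 were higher, 1 was lower, and the median difference was 1.40. *Ncr1*, an activating receptor that marks NK cells, was at 2.09, 14.1, 12 and 2.66 FPKM in Balb/c tumors and at 0 to 0.0344 FPKM in NSG tumors (difference 2.76, adjusted p = 0.0057). *Klrd1*, the partner chain of the NKG2 receptors, was at 6.77, 13.3, 12.8 and 7.1 FPKM against 0.0879 to 0.498 FPKM (difference 3.01, adjusted p = 1.31e-05). As with the granzymes, tumors 58 and 59 were the higher pair for both. *Klrb1c*, the NK1.1 antigen, stayed below the fold threshold (0.83, adjusted p = 0.0242).

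The lower member of this list was *Klra8*, an activating Ly49 receptor of NK cells. It was listed at 0, 0.108, 0 and 0 FPKM in the Balb/c tumors and at 13.1, 5.03, 8.45, 9.34 and 7.92 FPKM in NSG tumors (difference −3.20, SE 0.20, adjusted p = 7.94e-06). Every NSG tumor thus had a higher value of it than any Balb/c tumor, while *Ncr1* was at or near 0 in the NSG tumors. Reads of both hosts were aligned to mm10. The part of strain differences from mm10 in values near 0 was not tested, here or for other genes near 0 in 1 host. *Klra9* and *Klra10* had the same direction (differences −2.16 and −2.08), as did the pseudogene *Klra14-ps*, which was listed at 0 in every Balb/c tumor and at 1.37 to 2.65 FPKM in NSG tumors. Between 12.1% and 19.7% of the windows of these 4 genes occur in other genes, mostly of their own family, and their reads may be split among them. All lie in the NK gene complex of chromosome 6, where between positions 128609227 and 131247362 43 genes were tested, 9 were higher (*Klrb1a*, *BC064078*, *Klre1*, *Klrd1*, *Klrk1*, *Klrc1*, *Klri1*, *Klri2* and *Klra2*) and these 4 were lower. *Klra2*, of the same Ly49 family, was at 7.48 to 11.5 FPKM in Balb/c and at 1.37 to 3.22 FPKM in NSG tumors (difference 1.63). *Klrb1a* was not called in 4 of the fits that left out 1 tumor, those without Balb/c 58 or 59 or NSG 28 or 30, in which the difference was down to 0.87 and the adjusted p up to 0.0326.

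Among the 4 Balb/c tumors, the list means of the killer cell genes and of the T cell genes had opposite orders. The mean log2 (FPKM + 1) of the cytotoxic list was 2.52, 3.74, 3.55 and 2.92 in tumors 56, 58, 59 and 60, and that of the NK list was 1.33, 1.84, 1.74 and 1.35. The T cell list stood at 1.90, 1.53, 1.62 and 1.88, so its mean was higher in tumors 56 and 60 and the cytotoxic mean in tumors 58 and 59. Not every gene followed its list. *Ifng*, of the cytotoxic list, was at 1.49, 0.689, 1.06 and 1.89 FPKM in tumors 56, 58, 59 and 60. *Klrk1*, of the NK list, was highest in tumor 60 (6.53 FPKM), and *Cd3d*, of the T cell list, in tumor 59 (4.92 FPKM). The same split of tumors is seen in the libraries themselves. Spike-ins took 1.44% and 1.67% in tumors 56 and 60 against 2.25% and 2.5% in tumors 58 and 59, and the slope of the values along transcript length was 0.239 and 0.127 against −0.109 and −0.139. With the trend with transcript length removed, the cytotoxic means were 2.88, 3.60, 3.37 and 3.12 and the T cell means 2.05, 1.47, 1.55 and 1.96, in the same orders, but the NK means were 1.59, 1.74, 1.62 and 1.49, in which tumor 56 was close to tumor 59. The part of the library differences in this split was not tested. In NSG tumors the cytotoxic means were 0.11 to 0.16 and the T cell means 0.20 to 0.26.

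**Figure D2:**
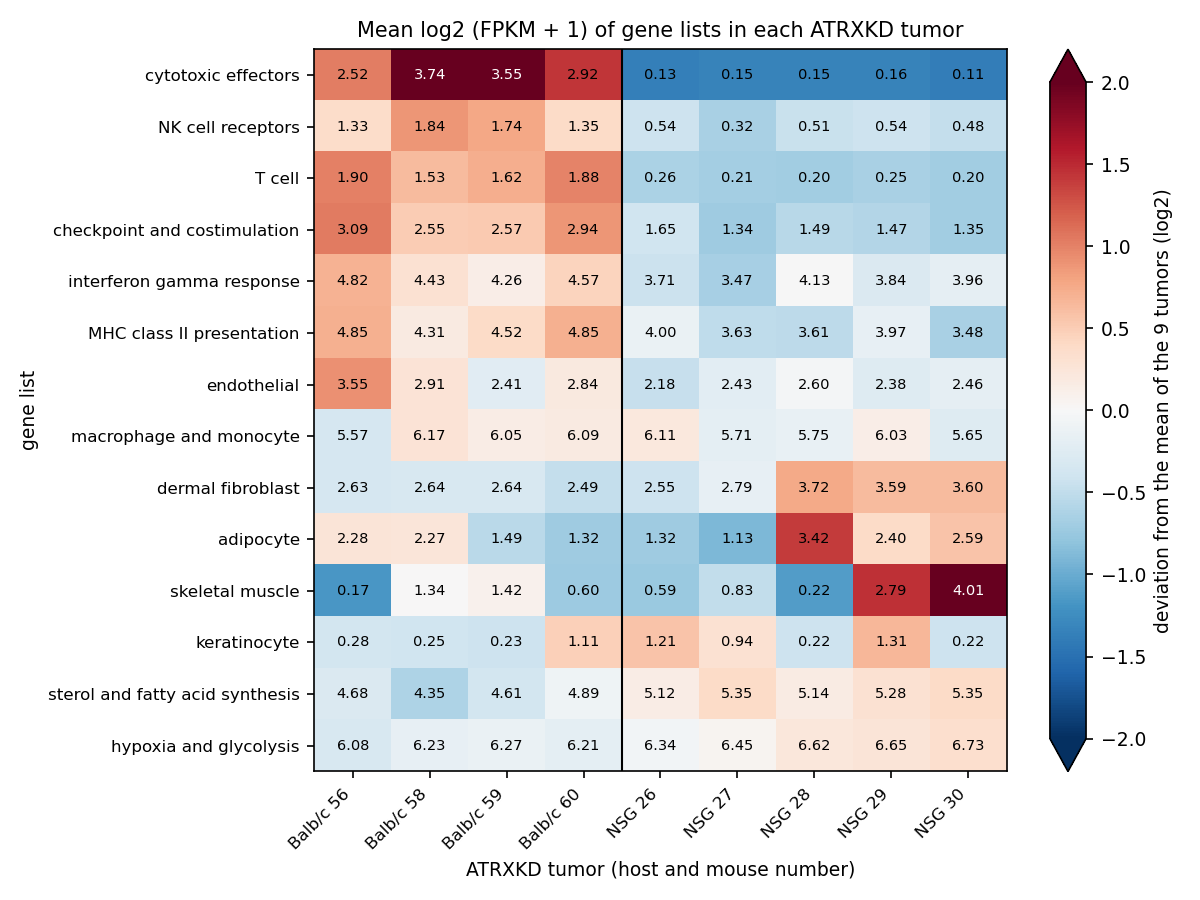
Mean log2 (FPKM + 1) of 14 gene lists (rows) in each of the 9 ATRXKD tumors (columns, Balb/c left of the line and NSG right), printed in each cell, with color for the deviation from the mean of the 9 tumors. The cytotoxic row runs from 2.52 to 3.74 in Balb/c and from 0.11 to 0.16 in NSG tumors, and skeletal muscle genes are highest in NSG tumors 29 and 30 (2.79 and 4.01).

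Receptors that restrain or promote T cells were also higher in Balb/c hosts. Of 12 tested genes of this list, 8 were higher and 0 lower (median difference 1.35). *Pdcd1*, which encodes the inhibitory receptor PD-1, was at 7.45, 2.6, 6.54 and 8.53 FPKM in Balb/c tumors and at 0.151 to 0.528 FPKM in NSG tumors, with tumor 58 the lowest of the Balb/c tumors (difference 2.37, SE 0.25, adjusted p = 0.000388). *Ctla4*, a competitor of *Cd28* for its ligands, was at 3.86, 2.33, 1.99 and 2.65 FPKM and did not exceed 0.0319 FPKM in NSG tumors (difference 1.84, adjusted p = 1.51e-05). *Tnfrsf18*, the costimulatory receptor GITR, was at 3.66 to 5.54 FPKM against 0.158 to 0.756 FPKM (difference 1.99). *Lag3* (1.63) and *Icos* (1.24) were called in the same direction, and *Tnfrsf4* (1.02) lay so near the fold threshold that it was not called without Balb/c 56 or 60 or NSG 30 (differences 0.93, 1.00 and 0.97). Of the PD-1 ligands, *Cd274* was not called and *Pdcd1lg2* was higher at 8.88, 1.98, 3.11 and 5.18 FPKM against 0.526 to 1.18 FPKM (difference 1.61, adjusted p = 0.0128).

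*Il2rb*, the chain that binds interleukin 2 and interleukin 15 together with the common gamma chain, had the lowest adjusted p of all genes. It was at 19.6, 18.6, 15.2 and 19.3 FPKM in Balb/c tumors, 18.2 ± 2.0 (SD, n = 4), and at 0.0591, 0.0749, 0.112, 0.116 and 0.0159 FPKM in NSG tumors (difference 4.15, SE 0.11, adjusted p = 2.17e-08). Unlike the granzymes it varied little among the Balb/c tumors. It was the only called gene of the 10 tested genes of its list, whose median was 0.17. *Il7r*, the interleukin 7 receptor, was at 3.17 to 4.09 FPKM in Balb/c and 3.04 to 4.33 FPKM in NSG tumors, and the hosts overlapped (difference −0.02, adjusted p = 0.955).

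The 20 genes plotted by tumor show these patterns on linear axes.

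**Figure D3:**
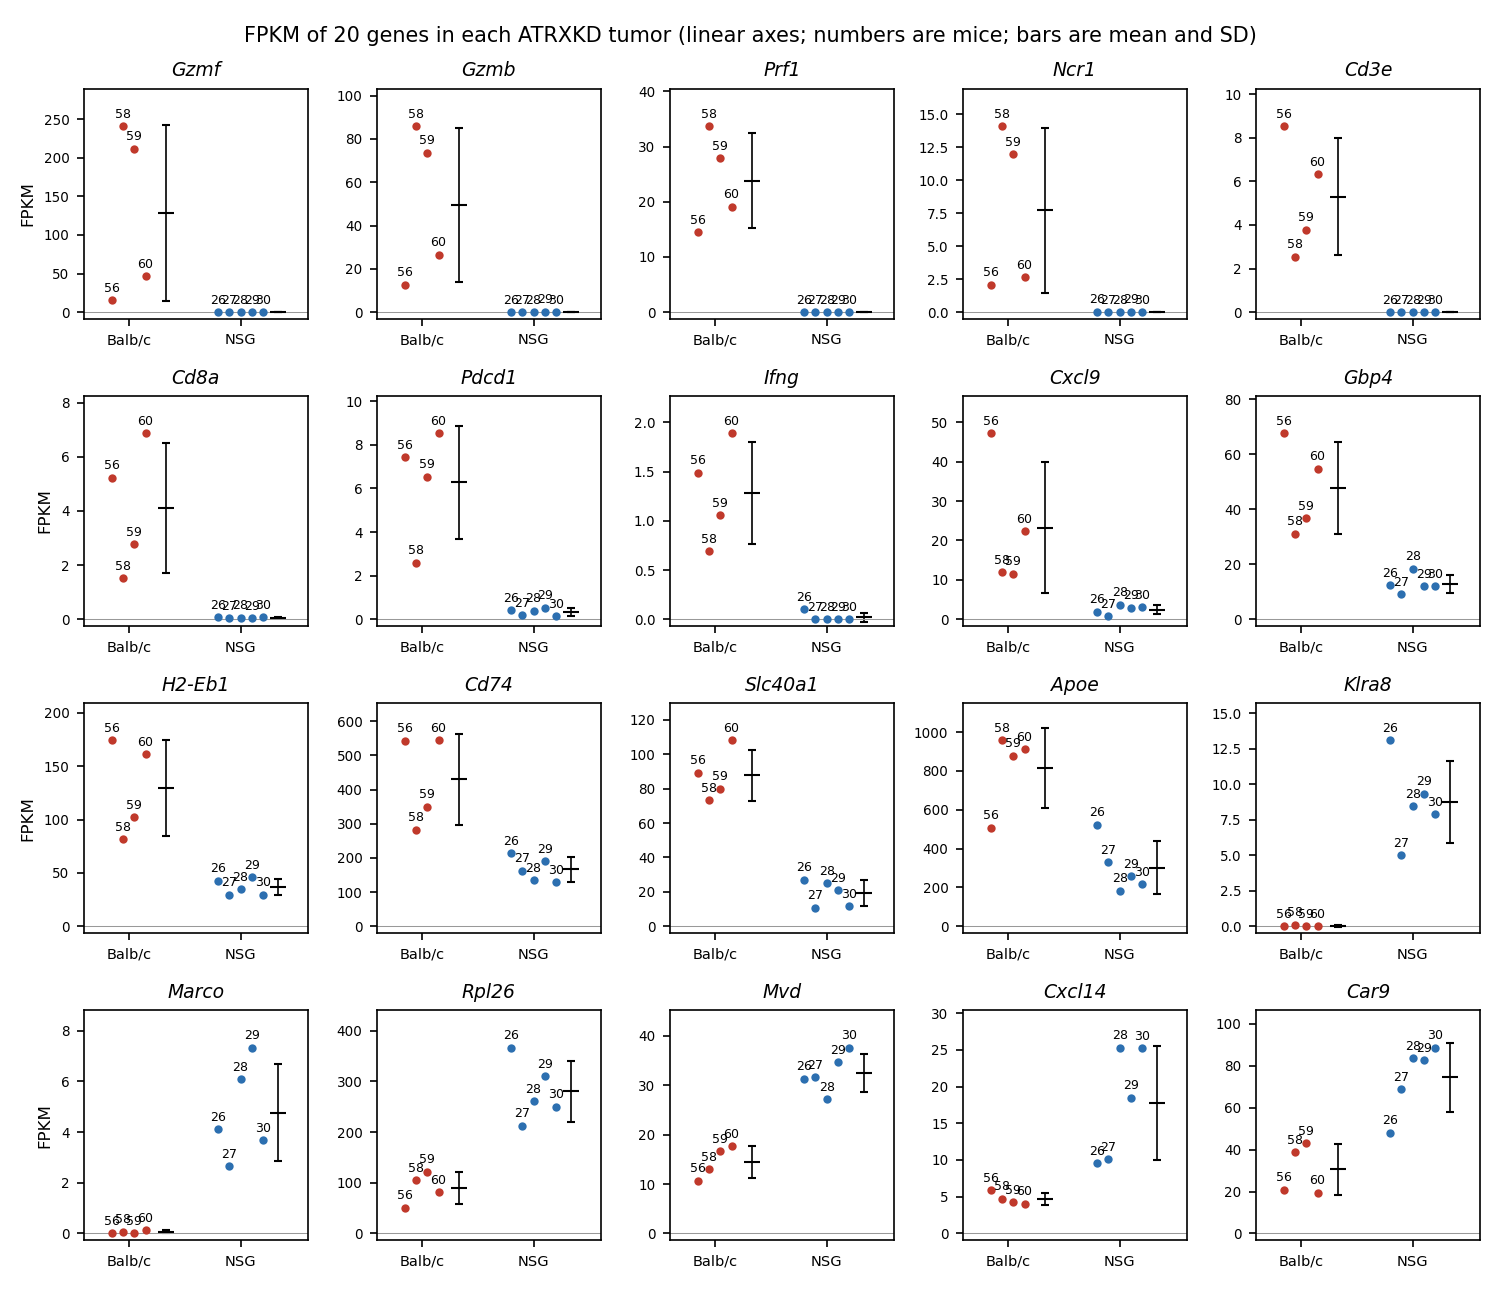
FPKM (y axes, linear and separate for each panel) of 20 genes in the 4 Balb/c (red) and 5 NSG (blue) ATRXKD tumors, with the mouse number at each point and black bars for the mean and SD. *Gzmf*, *Prf1*, *Ncr1* and *Cd3e* sit at or near 0 in all NSG tumors, *Klra8* and *Marco* near 0 in all Balb/c tumors, and for *Apoe* Balb/c tumor 56 (508 FPKM) lies below NSG tumor 26 (523 FPKM).

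Genes induced by interferon gamma were in part higher in Balb/c hosts. *Ifng* itself was at 1.49, 0.689, 1.06 and 1.89 FPKM in Balb/c tumors and was listed at 0 in 4 NSG tumors and at 0.104 FPKM in tumor 26 (difference 1.13, SE 0.14, adjusted p = 0.000989). Of the 31 listed response genes, 7 were higher and 0 lower, the median difference was 0.60, and 28 of the 31 differences were above 0. *Cxcl9*, a chemokine that attracts activated T cells, was at 47.2, 11.9, 11.6 and 22.4 FPKM in Balb/c tumors and at 1.96, 0.763, 3.69, 2.9 and 3.01 FPKM in NSG tumors (difference 2.66, SE 0.41, adjusted p = 0.00497). Tumor 56 stood highest, and no NSG tumor reached the lowest Balb/c tumor. *Gbp4*, a guanylate-binding protein, was at 67.6, 31.1, 36.8 and 54.8 FPKM against 12.5, 9.09, 18.4, 11.9 and 12.1 FPKM, which is a 3.71-fold difference of the means (log2 difference 1.78, adjusted p = 0.00211). Its neighbors on chromosome 5, *Gbp8* (1.87), *Gbp10* (1.83) and *Gbp11* (1.01), were called too, though 77.8% of the windows of *Gbp10* occur in other genes, and *Gbp11* was not called without Balb/c 56 or 60 or NSG 27 or 29 (differences from 0.94 to 1.00). *Gbp5* was higher at 21.8, 14.6, 10.3 and 16 FPKM against 4.21 to 9.86 FPKM (difference 1.05, adjusted p = 0.0423), but in 6 of the 9 fits that left out 1 tumor it was not called (adjusted p up to 0.11). Those were the fits without Balb/c 56, 58 or 60 or NSG 27, 29 or 30.

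The seventh call was *Iigp1*, an interferon-induced GTPase, at 68.8, 68.6, 57.6 and 61 FPKM in Balb/c tumors and at 20.5, 11.4, 32.3, 25.3 and 28.2 FPKM in NSG tumors (difference 1.48, adjusted p = 0.00785). The other 24 genes of the list did not pass both thresholds. Among them *Irf1*, a transcription factor of the response, differed by 0.31 (adjusted p = 0.215), *Ifngr1* by 0.04 and the inhibitor *Socs1* by −0.07. *Irf8*, a factor of myeloid cells, was at 36.9 to 42 FPKM against 18.3 to 25.3 FPKM, which passed the adjusted p (0.00115) but not the 2-fold threshold (difference 0.91).

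The promoters of *Cxcl9* (chr5:92328030-92328329, minus strand) and *Gbp5* (chr3:142496684-142496983, plus strand) are shown as the 2 called genes of this list with the largest differences for which an entry was found. Capitals mark the GAS motif TTCNNNGAA, a binding motif of STAT factors that reads the same on both strands, the ISRE core GAAANNGAAA or its other strand TTTCNNTTTC, and the Y box CTGATTGG or its other strand CCAATCAG.
*Cxcl9*: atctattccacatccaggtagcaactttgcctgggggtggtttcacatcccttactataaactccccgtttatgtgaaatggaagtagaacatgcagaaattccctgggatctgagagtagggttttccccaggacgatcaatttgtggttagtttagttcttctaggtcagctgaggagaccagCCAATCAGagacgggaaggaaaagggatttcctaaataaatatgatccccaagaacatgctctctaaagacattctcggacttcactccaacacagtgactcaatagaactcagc
*Gbp5*: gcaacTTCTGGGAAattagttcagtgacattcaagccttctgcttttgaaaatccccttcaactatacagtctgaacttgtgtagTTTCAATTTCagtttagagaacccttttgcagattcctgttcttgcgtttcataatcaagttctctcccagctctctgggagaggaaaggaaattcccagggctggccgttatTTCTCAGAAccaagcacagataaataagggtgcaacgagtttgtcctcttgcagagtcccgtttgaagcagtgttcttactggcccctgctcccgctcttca
The window of *Gbp5* held GAS 245 and 52 bases before the start and the ISRE core 165 bases before it, none of them overlapping. That of *Cxcl9* held a Y box 65 bases before the start and neither of the other motifs, which says only that these letters are not in this window. GAS occurs in 8.3% and the ISRE core in 3.4% of all promoters of this length, against 15.4% (16 of 104) and 4.8% (5 of 104) of the genes called higher with an entry.

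The lists of type I interferon response genes and MHC class I genes held no calls. None of 28 type I interferon genes was called by limma in either direction (1 higher and 1 lower at an unadjusted p under 0.05), the median difference was −0.21, and 24 of the 28 lay below 0. *Isg15*, a ubiquitin-like protein of this response, was at 48.5, 136, 91.9 and 61.5 FPKM in Balb/c tumors and at 89.2, 40.3, 144, 110 and 112 FPKM in NSG tumors, with a wide overlap (difference −0.22, adjusted p = 0.805). *Ifi44l*, a gene of this response that was not on the list, stood apart from it at 23.3, 35.2, 26.1 and 19.2 FPKM against 0.133 to 1.24 FPKM (difference 3.98, adjusted p = 3.26e-06). Of 19 MHC class I genes limma called 0 (median difference 0.16). At an unadjusted p under 0.05, 6 of the 19 were higher and 0 lower, against 9.86% and 6.56% of all genes. Differences were above 0 for 14 of the 19. In 4 every Balb/c tumor was above every NSG tumor, as in 5.04% of all genes. *H2-T24*, a nonclassical MHC class I gene that was not on the list, was called higher at 26.1, 30, 22.8 and 28.1 FPKM against 7.84, 5.42, 18.4, 12.1 and 15.1 FPKM (difference 1.22, adjusted p = 0.0465). It was called in only 2 of the 9 fits that left out 1 tumor, those without NSG 27 or 28 (adjusted p up to 0.121). *B2m*, the light chain of MHC class I, was at 945 to 1410 FPKM in Balb/c and 1180 to 1380 FPKM in NSG tumors.

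Of 11 tested genes of the MHC class II pathway, which shows peptides to helper T cells, 6 were called higher and 0 lower, with a median difference of 1.15 and all 11 differences above 0. *H2-Eb1*, a beta chain, was at 174, 81.3, 102 and 161 FPKM in Balb/c tumors and at 42.7, 29.6, 35.1, 46.3 and 29.7 FPKM in NSG tumors. The hosts did not overlap, tumors 56 and 60 were the higher pair, and the means, 130 ± 44.7 and 36.7 ± 7.63 FPKM (SD, n = 4 and 5), differed 3.53-fold (log2 difference 1.75, adjusted p = 0.002). *Cd74*, the invariant chain that guides class II molecules, was at 543, 283, 350 and 544 FPKM against 129 to 215 FPKM (difference 1.34, adjusted p = 0.00981). *H2-Aa* (1.39), *H2-Ab1* (1.30) and *H2-DMa* (1.15), which helps to load peptides, were also higher, as was *H2-DMb1* (1.30), which was not called without Balb/c 60 (difference 1.19, adjusted p = 0.0545). *Ciita*, the factor that switches these genes on, was at 6.95, 1.79, 2.59 and 3.87 FPKM in Balb/c tumors and at 1.01 to 1.79 FPKM in NSG tumors and was not called (difference 0.97, adjusted p = 0.0791). Without NSG tumors 29 and 30, which were high in skeletal muscle genes, 2 of the 11 genes were called.

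The promoters of *H2-Eb1* (chr17:34305617-34305916, plus strand) and *H2-Aa* (chr17:34287774-34288073, minus strand) are shown for the shared Y box of class II genes, in capitals, and were chosen after the values were seen.
*H2-Eb1*: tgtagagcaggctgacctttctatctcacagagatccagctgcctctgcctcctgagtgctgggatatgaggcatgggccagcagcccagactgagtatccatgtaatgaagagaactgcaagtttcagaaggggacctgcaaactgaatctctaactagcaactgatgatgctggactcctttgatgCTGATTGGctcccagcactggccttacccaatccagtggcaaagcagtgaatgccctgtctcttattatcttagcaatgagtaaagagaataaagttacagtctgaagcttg
*H2-Aa*: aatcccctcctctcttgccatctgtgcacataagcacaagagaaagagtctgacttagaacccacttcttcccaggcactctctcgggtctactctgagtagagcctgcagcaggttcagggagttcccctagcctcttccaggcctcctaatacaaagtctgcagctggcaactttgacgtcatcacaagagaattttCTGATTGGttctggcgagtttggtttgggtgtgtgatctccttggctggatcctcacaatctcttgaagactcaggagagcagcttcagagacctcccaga
The Y box CTGATTGG lies 62 bases before the start of *H2-Eb1* and 51 bases before that of *H2-Aa*, on the plus strand of both windows as printed. It occurs in 4.1% of all promoters of this length and in 6.7% (7 of 104) of the genes called higher.

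Of the chemokine genes, which direct leukocytes, 3 of 30 were higher and 1 was lower, and the median difference was 0.06. The higher genes were *Cxcl9*, *Xcl1* and *Ccl24*. *Ccl24*, which attracts eosinophils, was at 19.4, 18.2, 24.7 and 23 FPKM in Balb/c tumors and at 3.43, 1.3, 1.7, 2.26 and 1.25 FPKM in NSG tumors (difference 2.94, SE 0.20, adjusted p = 1.52e-05). All Balb/c tumors were at least several times above the highest NSG tumor, and among them the spread was small. *Xcl1*, made by killer cells, was at 1.58, 8.4, 4.08 and 0.718 FPKM against a highest NSG value of 0.14 FPKM, but was not called without Balb/c 59 or any 1 of the NSG tumors (adjusted p up to 0.0719). *Ccl5*, which T cells and many other cells make, was not higher in Balb/c hosts: it was at 28.5, 68.5, 65.5 and 54.6 FPKM against 83.1, 55.9, 123, 110 and 132 FPKM (difference −0.89, adjusted p = 0.165). *Rnase2a*, a ribonuclease of the eosinophil family that is on no list, was at 23, 71.4, 152 and 122 FPKM in Balb/c tumors and at 11.4, 7.92, 0.699, 6 and 1.84 FPKM in NSG tumors (difference 3.87, SE 0.67, adjusted p = 0.00911).

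Macrophage genes as a group held 1 call. Of 20 tested genes limma called 0 higher, with 4 higher at an unadjusted p under 0.05 (9.86% of all genes), and 1 was lower, and the median difference was 0.23. *Csf1r*, the growth factor receptor of macrophages, was at 361, 335, 276 and 381 FPKM in Balb/c tumors and at 315, 351, 312, 299 and 327 FPKM in NSG tumors (difference 0.07, adjusted p = 0.826), and *Adgre1*, the F4/80 antigen, overlapped as widely (difference −0.08). The lower gene was *Marco*, a scavenger receptor of some macrophages, which was at 0.0192, 0.0714, 0.0245 and 0.14 FPKM in Balb/c tumors and at 4.1, 2.65, 6.08, 7.33 and 3.68 FPKM in NSG tumors (difference −2.38, SE 0.22, adjusted p = 0.000107). Single macrophage genes outside the list went the other way. *Slc40a1*, the iron exporter ferroportin, was at 89.2, 73.4, 80 and 108 FPKM against 27.1, 10.9, 25.1, 21 and 11.8 FPKM, a 4.57-fold difference of the means (log2 difference 2.21, adjusted p = 0.000969). *Siglec1*, an adhesion receptor of tissue macrophages, was at 59.9, 47.1, 40.3 and 66.8 FPKM against 20.4 to 24.8 FPKM (difference 1.16, adjusted p = 0.00115). No cell type can be assigned to these differences in bulk tumors.

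Other myeloid lists held few calls. At an unadjusted p under 0.05 in limma, 8 of 14 neutrophil and 7 of 13 dendritic cell genes were higher, and 1 of each was lower. Over all genes 9.86% were higher and 6.56% lower. Of 14 neutrophil genes 2 were higher, *S100a8* and *S100a9*, which encode the subunits of calprotectin. *S100a8* was at 94.7, 171, 97 and 99.7 FPKM in Balb/c tumors and at 46.4, 24.1, 30.8, 62.2 and 37.8 FPKM in NSG tumors (difference 1.53, adjusted p = 0.0109), whereas *S100a9* was called in only 3 of the 9 fits that left out 1 tumor. It was not called when any 1 of the Balb/c tumors or NSG 28 or 30 was left out (adjusted p up to 0.0981). Of 13 dendritic cell genes 1 was higher, *Clec10a* (difference 1.25, adjusted p = 0.0246), which was not called without Balb/c 58, 59 or 60 or NSG 27, 28 or 30 (adjusted p up to 0.0797). Fc gamma receptor genes gave 0 calls by limma in 6 (median 0.55), with 3 higher at an unadjusted p under 0.05 (9.86% of all genes). In 2 of the 6 every Balb/c tumor was above every NSG tumor, as in 5.04% of all genes. Of 16 tested complement genes 3 were higher, *C6*, *Cd55* and *C4a*, the last of which shares 19.8% of its windows with other genes, *C4b* most. *C6*, a part of the membrane attack complex, was at 13.3, 3.83, 5.3 and 10.9 FPKM in Balb/c tumors and at 0.239 to 1.07 FPKM in NSG tumors (difference 2.26, adjusted p = 0.00211).

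Mast cell genes held 1 call among 14 in the ATRXKD tumors, and the median difference was −0.19. At an unadjusted p under 0.05 in limma, 2 were higher and 4 lower, against 9.86% and 6.56% of all genes. *Tpsb2*, a tryptase of mast cell granules, was at 9.11, 14.6, 8.87 and 19.3 FPKM in Balb/c tumors and at 11, 22.5, 20.6, 22.7 and 13.7 FPKM in NSG tumors (difference −0.47, adjusted p = 0.429). *Fcer1a* and *Ms4a2*, chains of the IgE receptor, differed by −0.63 and −0.23 (adjusted p = 0.275 and 0.533), and the hosts overlapped for all 3. The call was *Tpsab1*, a further tryptase, at 10.2, 13.2, 5.38 and 26 FPKM against 2.14, 5.62, 3.17, 3.87 and 2.4 FPKM (difference 1.59, adjusted p = 0.0446). It overlapped between hosts and was called in only 2 of the 9 fits that left out 1 tumor, those without Balb/c 59 or NSG 27 (adjusted p up to 0.118).

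B cell genes gave 1 call in 10 (median 0.13). At an unadjusted p under 0.05 in limma, 4 were higher and 1 lower, against 9.86% and 6.56% of all genes. *Jchain*, which joins antibody chains in plasma cells, was at 1.94, 2.27, 0.478 and 1.91 FPKM in Balb/c tumors and listed at 0 in all NSG tumors (difference 1.34, adjusted p = 0.0037). *Hba-a2*, an alpha globin gene, was at 18.3, 81.7, 95.9 and 31.5 FPKM in Balb/c tumors and at no more than 0.121 FPKM in NSG tumors (difference 5.50, adjusted p = 2.57e-05). It shares 84.6% of its windows with *Hba-a1*, which was at 29.2 to 163 FPKM in Balb/c and 82 to 164 FPKM in NSG tumors (difference −0.58, adjusted p = 0.579), so the split of reads between these near-identical copies is uncertain.

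Of 18 endothelial genes 1 was called, and 17 of the 18 differences were above 0, with a median of 0.54. At an unadjusted p under 0.05 in limma, 10 of the 18 were higher and 1 was lower, against 9.86% and 6.56% of all genes. The called gene was *Cldn5*, a tight junction protein, at 35.8, 27.4, 15 and 24.3 FPKM in Balb/c tumors and at 10.5, 10.1, 10.2, 12.2 and 8.84 FPKM in NSG tumors (difference 1.17, adjusted p = 0.0109). Without Balb/c tumor 56, the highest, its difference was 0.99 (adjusted p = 0.0193) and it was not called. Of 12 pericyte genes 1 was called, *Kcnj8*, a potassium channel subunit (difference 1.22, adjusted p = 0.000902), and 5 were higher and 0 lower at the same unadjusted p.

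**Figure D4:**
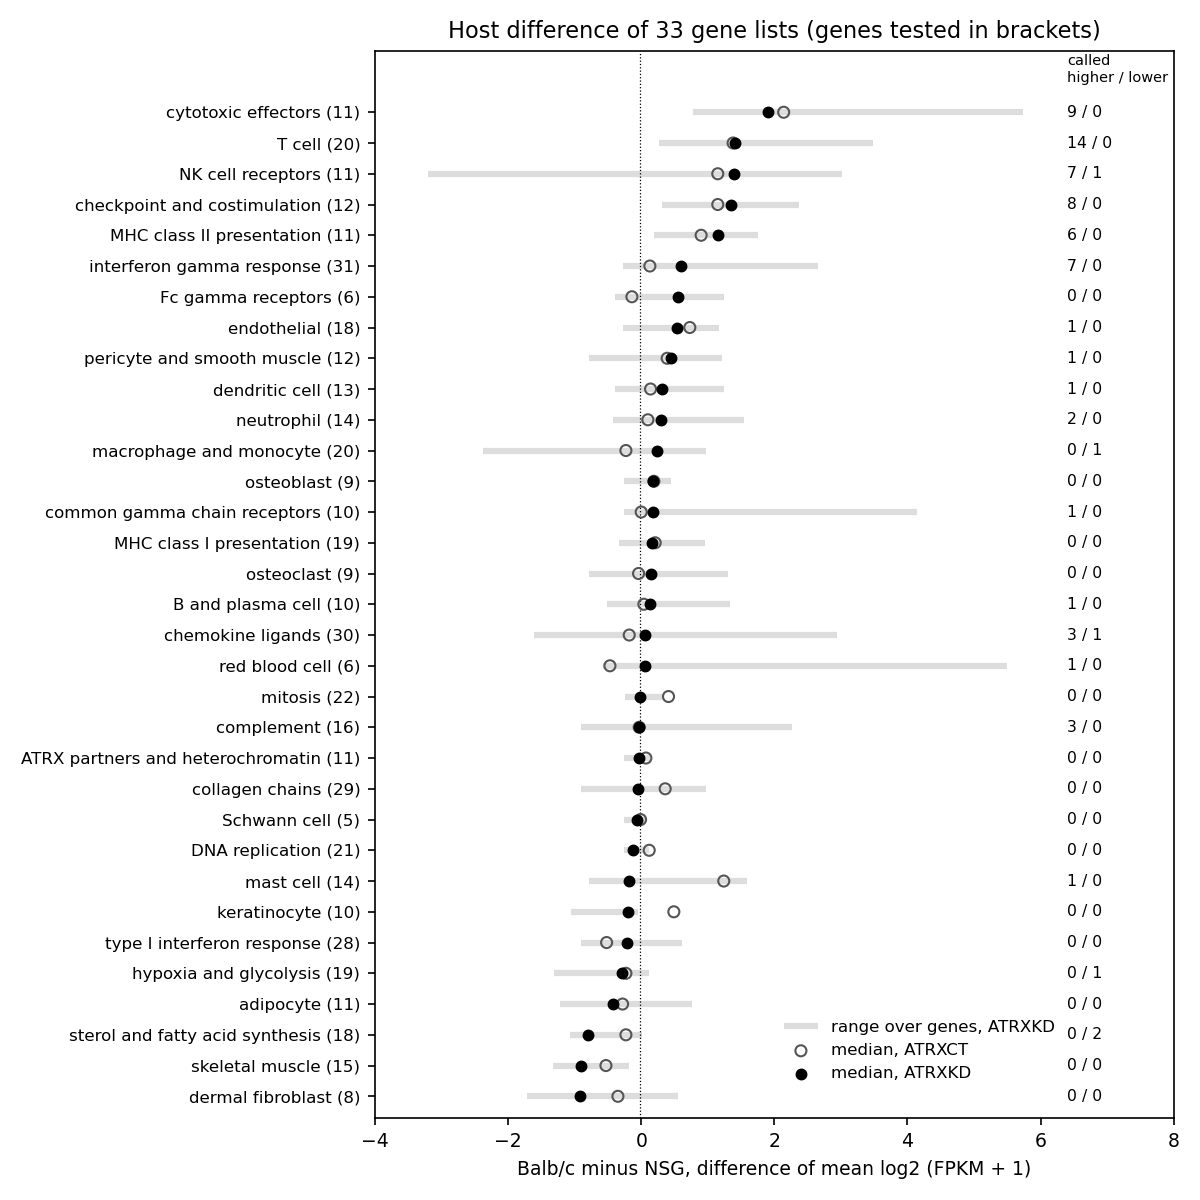
Difference of mean log2 (FPKM + 1) between Balb/c and NSG tumors for 33 gene lists, with filled circles for the median over the list's genes in ATRXKD tumors, open circles for the median in ATRXCT tumors, gray bars for the range over genes in ATRXKD tumors, and counts of genes called higher and lower in ATRXKD tumors at the right. The dotted line is the median over all genes (−0.02), and the cytotoxic, T cell, NK cell, checkpoint and MHC class II lists have medians of 1.91, 1.41, 1.40, 1.35 and 1.15.

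Genes of the tissue around the graft differed between single tumors more than between hosts. The mean log2 (FPKM + 1) of 16 skeletal muscle genes was 0.17 to 1.42 in Balb/c tumors and 0.59, 0.83, 0.22, 2.79 and 4.01 in NSG tumors 26 to 30. Keratinocyte genes were at a mean of 1.11 in Balb/c tumor 60 and 1.21, 0.94 and 1.31 in NSG tumors 26, 27 and 29, and between 0.22 and 0.28 in the 5 others. The dermal fibroblast mean was 2.49 to 2.64 in Balb/c tumors, 2.55 and 2.79 in NSG tumors 26 and 27 and 3.59 to 3.72 in NSG tumors 28 to 30. None of these 3 lists held a call in limma, and their medians were −0.91, −0.20 and −0.92. At an unadjusted p under 0.05 the muscle and keratinocyte lists had 0 genes and the dermal fibroblast list 5 of 8, all lower, against 6.56% of all genes on the lower side. With libraries weighted by quality and variances estimated robustly, or without NSG tumor 26, 4 of the 8 dermal fibroblast genes were called lower. Without NSG tumors 29 and 30, 115 genes were higher and 19 lower, and without the 4 tumors high in keratinocyte genes, which left 3 against 2, 82 were higher and 41 lower. Without NSG tumors 29 and 30, the higher calls included 13 T cell, 9 cytotoxic, 6 NK, 4 checkpoint, 5 interferon gamma and 2 MHC class II genes. Without the tumors high in keratinocyte genes they included 9 T cell, 4 cytotoxic, 6 NK, 3 checkpoint, 1 interferon gamma and 1 MHC class II gene.

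The largest difference among the lower genes was that of *Hist1h2ba*, a histone H2B variant known from testis. It was at 0.183, 0.226, 0.232 and 0.221 FPKM in Balb/c tumors and at 18, 11.9, 12.9, 18.8 and 12.8 FPKM in NSG tumors (difference −3.68, SE 0.15, adjusted p = 3.25e-07). The tumors of each host lay close together, and the hosts were far apart. Because 33.2% of its windows occur in other genes, part of its reads could come from other histone genes. *Gm8615* and *BC018473*, whose functions are not given here, were lower by −2.86 and −2.56, with Balb/c values of at most 0.296 and 0.0331 FPKM and NSG values of at least 6.4 and 3.89 FPKM. *Rpl26*, a ribosomal protein, was at 50.9, 105, 122 and 81.6 FPKM against 367, 213, 261, 311 and 250 FPKM (difference −1.68, adjusted p = 0.0036), and 17.1% of its windows occur elsewhere. *Tspan32*, a tetraspanin of blood cells, was at 0.729 to 0.971 FPKM in Balb/c and at 4.42 to 8.61 FPKM in NSG tumors (difference −1.90, adjusted p = 0.000122).

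Lower genes also included 3 secreted proteins whose NSG values followed the dermal fibroblast genes. *Cxcl14*, a chemokine made by skin and fibroblasts, was at 5.91, 4.74, 4.29 and 4.04 FPKM in Balb/c tumors and at 9.6, 10.1, 25.3, 18.5 and 25.2 FPKM in NSG tumors, highest in tumors 28 to 30 (difference −1.61, SE 0.29, adjusted p = 0.0123). *Rarres2*, the chemoattractant chemerin, was at 6.85 to 16.3 FPKM against 22, 22.3, 76, 59.3 and 68.1 FPKM (difference −1.91, adjusted p = 0.0297). *Lbp*, which binds lipopolysaccharide, was at 0.962 to 1.51 FPKM against 2.51, 2.76, 8.99, 8.77 and 9.77 FPKM (difference −1.60, adjusted p = 0.0378). *Rarres2* was not called without Balb/c 56, 59 or 60 or NSG 28, 29 or 30 (adjusted p up to 0.0848), and *Lbp* was called only without NSG 26 or 27. The part of skin tissue in these 3 differences was not tested.

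Of 18 tested genes of sterol and fatty acid synthesis 0 were higher and 2 were lower, *Fdps* and *Cyp51*, and 16 of the 18 differences were below 0 with a median of −0.80. In 9 of them every Balb/c tumor was below every NSG tumor, as in 3.09% of all genes. Without a fold threshold 9 of the 18 passed the adjusted p, against 118 of all 14202 genes that passed it on the lower side. *Hmgcs1*, which makes the precursor that enters the pathway, was at 29.1, 27.2, 34.9 and 39.3 FPKM in Balb/c tumors and at 60.9, 70.4, 54.8, 62.1 and 68.8 FPKM in NSG tumors (difference −0.95, SE 0.13, adjusted p = 0.00194). *Sqle*, squalene epoxidase, was as regular, at 37.2 to 45.3 FPKM against 68.5 to 83.4 FPKM (difference −0.91, adjusted p = 0.000528). *Fdps*, farnesyl diphosphate synthase, was at 95.7, 122, 153 and 182 FPKM against 285, 262, 243, 320 and 312 FPKM (difference −1.07, adjusted p = 0.00879). *Mvd*, of the same pathway but on no list, was at 10.7, 13, 16.7 and 17.7 FPKM against 27.2 to 37.6 FPKM (difference −1.13, adjusted p = 0.00211). *Fasn*, of fatty acid synthesis, overlapped between hosts (0.00, adjusted p = 0.997). Without Balb/c tumor 56 the difference of *Fdps* was −0.91 (adjusted p = 0.0105), that of *Mvd* −1.0 (adjusted p = 0.00321), and 0 genes of the list were called, and without tumor 60 there were 5. *Cyp51* lay at the threshold (−1.0) and was not called without Balb/c 56 or 58 or NSG 29 or 30, down to −0.92. Without NSG tumors 29 and 30 together 0 genes of the list were called.

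Of 19 tested hypoxia and glycolysis genes 1 was lower, *Car9*, and 17 of the 19 differences were below 0 (median −0.29). At an unadjusted p under 0.05 in limma, 9 of the 19 were lower, against 6.56% of all genes, and 0 were higher. In 6 of the 19 every Balb/c tumor was below every NSG tumor, as in 3.09% of all genes. *Car9*, a carbonic anhydrase induced by low oxygen, was at 20.9, 38.8, 42.9 and 19.5 FPKM in Balb/c tumors and at 48, 68.9, 83.7, 82.6 and 88.6 FPKM in NSG tumors (difference −1.31, SE 0.26, adjusted p = 0.0221). It was not called without Balb/c 56 or 60 or NSG 28, 29 or 30 (adjusted p up to 0.0663). *Vegfa* was at 17 to 32.1 FPKM in Balb/c and 22.4 to 28.1 FPKM in NSG tumors (difference −0.01).

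Genes of cell division, bone formation and matrix, many of which the tumor cells express, gave no calls between hosts. None of 22 mitosis, 21 DNA replication, 9 osteoblast, 29 collagen or 11 ATRX partner and heterochromatin genes was called by limma, with medians of −0.02, −0.12, 0.17, −0.05 and −0.04. The median of the mitosis list was 0.03 under quantile normalization. In the ATRXCT tumors the medians of the mitosis and DNA replication lists were 0.41 and 0.12, also without calls. At an unadjusted p under 0.05 the collagen list had 6 genes higher and 3 lower of 29, against 9.86% and 6.56% of all genes, and the 4 other lists had 0. *Top2a*, a topoisomerase of dividing cells, was at 117 to 170 FPKM in Balb/c and 99.7 to 141 FPKM in NSG tumors (difference 0.18, adjusted p = 0.594). *Daxx*, the partner of ATRX in histone deposition, was at 17.5 to 23 and 15.2 to 25.1 FPKM (difference −0.02, adjusted p = 0.952). *Col1a1* was at 499 FPKM in Balb/c tumor 56 and at 97.3 to 190 FPKM in the 8 others.

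Besides the granzyme and NK loci, calls lay together in several places. The Gimap cluster of chromosome 6, between positions 48569698 and 48770851, held 6 higher genes (*Gimap8*, *Gimap4*, *Gimap7*, *Gimap1*, *Gimap5* and *Gimap3*, GTPases of lymphocytes) among 11 tested, and *Rarres2* as its lower gene. *Gimap7* was at 4.33, 5.88, 6.08 and 3.8 FPKM in Balb/c tumors and listed at 0 in all NSG tumors, and *Gimap4* was not called without Balb/c 56 or NSG 26 (differences 0.96 and 0.97). The MHC region of chromosome 17 held 8 higher genes among 97 tested between positions 34122832 and 36020560. By chromosome, the share of genes called was highest on chromosome 6 (3.98%, 24 higher and 7 lower of 778) and lowest among the autosomes on chromosome 8 (0.399%).

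Of the genes listed at 0 in every NSG tumor, 33 had a mean of at least 0.5 FPKM in Balb/c tumors. The 16 that were above 0 in every Balb/c tumor included *Gzmf*, *Gzmd*, *Gzmg*, *Klrg1*, *Cd3e*, *Gimap7*, *Klrc1*, *Fcrl6*, *Jchain* and *Tox*, and 13 of the 33 were called. Another 16 had transcripts under 200 nt, such as *Mir5113* and *Snord35b*, and none of these was above 0 in every Balb/c tumor. In the reverse direction there were 14 such genes, of which 13 had short transcripts, and *Klra14-ps* alone was above 0 in every NSG tumor. *Mucl1*, which encodes a small mucin-like protein, was among the genes at 0 in NSG tumors, at 0.311, 5.09, 19.1 and 10.6 FPKM in Balb/c tumors (difference 2.71, adjusted p = 0.0418), and was called in 1 of the 9 fits that left out 1 tumor, the one without Balb/c 56, with adjusted p up to 0.121 in the rest.

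The same host contrast in the ATRXCT tumors, which share no tumor with the set above, gave 128 genes (0.892% of 14348) higher and 76 (0.53%) lower in Balb/c. Of the 161 genes higher in ATRXKD tumors, 103 were also called higher in ATRXCT tumors (64.0% of the first list and 80.5% of the second), and 159 had the same sign. For the 35 lower genes, 22 were called in both (62.9% and 28.9%), and all 35 had the same sign. None was called in opposite directions. Over the 161 higher genes the median difference was 1.48 in ATRXKD and 1.26 in ATRXCT tumors, and over the 35 lower genes it was −1.56 and −1.62. *Gzmb* differed by 4.72 in ATRXCT tumors, *Prf1* by 4.30, *Cd3e* by 2.42, *Il2rb* by 4.09 and *Klra8* by −4.17.

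**Figure D5:**
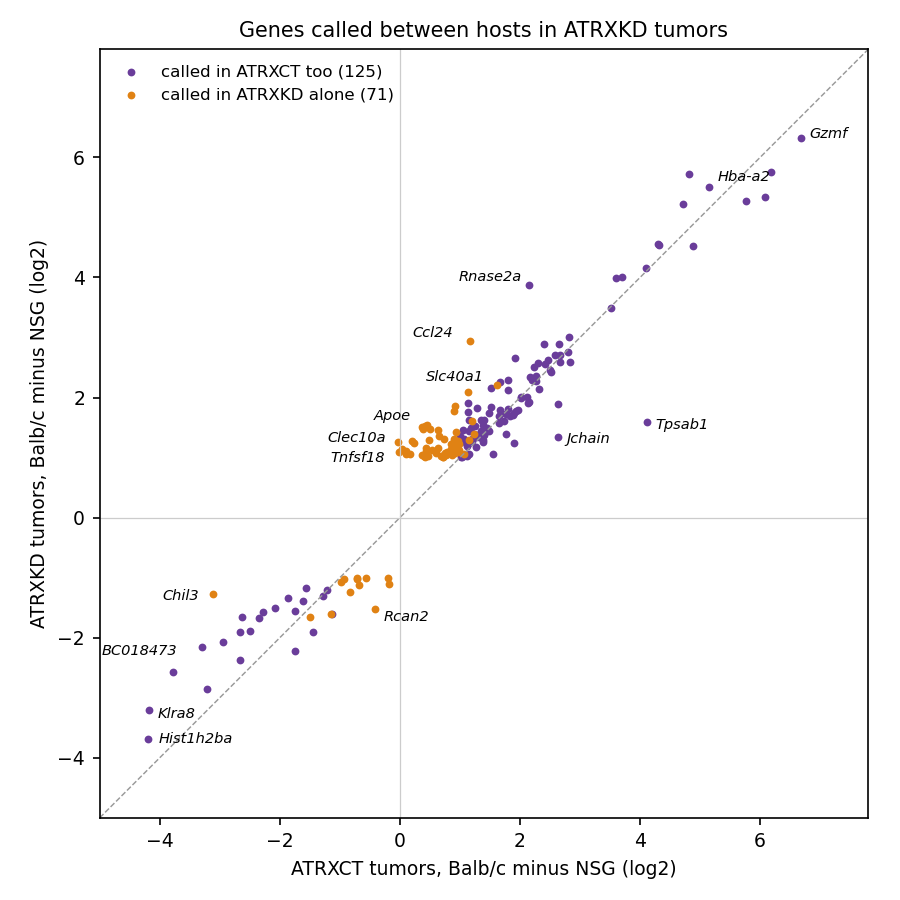
Balb/c minus NSG difference of mean log2 (FPKM + 1) in ATRXCT tumors (x axis) and ATRXKD tumors (y axis) for the 196 genes called in ATRXKD tumors, in purple where called in ATRXCT too (125) and in orange otherwise (71), with a dashed line of equal differences. Most genes lie near the line, *Ccl24* lies above it (2.94 against 1.17) and *Tpsab1* below it (1.59 against 4.12).

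Whether a host difference was itself different in ATRXKD tumors was tested as an interaction over all 18 tumors. limma called 0 genes in either direction (0 of 14331), with 604 genes larger and 860 smaller in ATRXKD at an unadjusted p under 0.05. The lowest adjusted p of the interaction among the 161 higher genes was 0.157 and among the 35 lower genes 0.195, so the 58 and 13 genes called in ATRXKD tumors alone are not shown to differ between the shRNAs. With libraries weighted by quality and variances estimated robustly, the interaction was called for 117 genes larger and 71 smaller. Both changes were made in the same fit, and their parts were not separated. *Ccl24* differed by 2.94 in ATRXKD and by 1.17 in ATRXCT tumors (interaction in limma over all genes, unadjusted p = 0.000634, adjusted p = 0.188). The median of the interferon gamma list was 0.60 in ATRXKD and 0.13 in ATRXCT tumors, and 9 of its 31 genes had a larger difference in ATRXKD at an unadjusted p under 0.05, against 4.21% of all genes. *Gbp4* differed by 1.78 and 0.90, and *Iigp1* by 1.48 and 0.50. Mast cell genes went the other way, with medians of −0.19 and 1.24, and 11 of 14 had a smaller difference in ATRXKD at an unadjusted p under 0.05, against 6.0% of all genes. At the same p, 8 of 21 DNA replication and 7 of 22 mitosis genes had a smaller difference in ATRXKD, and 0 a larger one. Of the collagen genes 6 had a smaller and 1 a larger difference. No interaction of a single gene of these lists passed the adjusted threshold.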

How the data were processed

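The authors extracted total RNA from subcutaneous tumors and sequenced stranded, ribo-depleted libraries. Per the methods, reads of a quality below 20 were dropped and PCR duplicates taken out, and the submitters' processing notes name STAR 2.6.0c, Cufflinks 2.2.1, DESeq and mm10. The deposited matrix holds log2 (FPKM + 1) values per gene and tumor, 20970 rows of which 92 are spike-ins. The base of the logarithm was checked from the column totals. Whole reads could not be recovered, since 35.9% to 39.1% of low values lay within 0.1 of a whole read, so no count test was made and depth is an estimate from the steps of low values. FPKM are relative to each library, and a change in a few abundant genes shifts all others.

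The 4 Balb/c and 5 NSG ATRXKD tumors were compared in limma 3.58.1 (R 4.3.3) on log2 (FPKM + 1) with an intensity trend, over the 14669 genes whose mean reached 0.1 FPKM, and p-values were adjusted by Benjamini-Hochberg. The 467 genes on chromosomes X and Y were then left out. The same model was fitted to the ATRXCT tumors, and the interaction to all 18. Each tumor is a separate mouse, and p-values measure the spread between tumors. They treat the tumors as independent, although cells were assigned by cage and cages are not known. Single genes named for the labels were tested by exact permutation, two-sided. The model was tested on simulated data. Shared sequence is the share of 75 nt windows of a gene's GENCODE M21 transcripts found in another gene.

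The members and gene lists were chosen with earlier results of these data known. Genes were named by a rule: the genes that check the labels, the first 3 genes of each of 33 lists, up to 4 called genes per list with the largest differences and no overlap, the 10 largest called differences in each direction, and genes listed at 0 throughout one host. Not every gene of the rule is printed, and some items are not reported here. *Apoe*, *BC064078*, *Cd5*, *Fasl*, *Fcrl6*, *Gbp5*, *Gbp11*, the Gimap genes, *Gzmn*, *H2-DMa*, *H2-T24*, *Icos*, *Ifi44l*, *Ifngr1*, *Iigp1*, *Irf8*, *Klra2*, *Klra14-ps*, *Klrb1a*, *Klre1*, *Klri1*, *Klri2*, *Lbp*, *Mvd*, *Pdcd1lg2*, *Rnase2a*, *Rpl26*, *Siglec1*, *Slc40a1*, *Socs1*, *Sqle*, *Tnfrsf4*, *Tox*, *Tpsab1* and the Y-linked genes were named after their values were seen. Promoter sequences are RefSeq's for GRCm38.p6. Alternatives were a pseudocount of 0.1, median-ratio and quantile scaling, a filter of 1 FPKM or none, no fold threshold, library weights, all 4 groups in 1 fit, adjustment without chromosomes X and Y, and leaving out each tumor. The fit with library weights also used robust variance estimates, which no other fit did, so its counts reflect both changes together. After seeing the data, fits without the trend with transcript length and without tumors high in skeletal muscle or keratinocyte genes were added.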

Additional observations from a re-analysis of the deposited data

Results flagged for a closer look

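A tumor was listed here where it lay far from the others of its group by Dixon's criterion at the 95% level. Of 325 groups of 4 or 5 tumors checked, 26 held such a tumor, and about 16.2 would by chance. That chance number does not apply to the small RNA genes listed at the end, which were detected in the distant tumor alone. Such a gene meets the criterion whatever its value, and genes undetected throughout the other host were among those chosen for checking. An excess over chance is therefore not shown.

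Among gene list means on the log2 (FPKM + 1) scale, the NK cell receptors were low in NSG tumor 27 (0.32, others 0.48 to 0.54), dermal fibroblast genes were low in Balb/c tumor 60 (2.49, others 2.63 to 2.64), and keratinocyte genes were high in the same tumor (1.11, others 0.23 to 0.28). *Krt5*, a keratin of the basal skin layer, was also high there at 2.62 FPKM (others 0 to 0.154).

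Balb/c tumor 56 had *Col1a1* at 499 FPKM (others 129 to 143) and *H2-K1* at 309 FPKM (others 412 to 430). *S100a8* was at 171 FPKM in Balb/c tumor 58 (others 94.7 to 99.7), and *Jchain* was at 0.478 FPKM in Balb/c tumor 59 (others 1.91 to 2.27). In NSG tumor 27, *Atrx* was at 16.4 FPKM (others 8.42 to 8.88), *Cdk1* at 55.7 FPKM (others 72.6 to 75.9) and *C6* at 0.239 FPKM (others 0.798 to 1.07). In NSG tumor 26, *Col3a1* was at 79.6 FPKM (others 173 to 218) and *Pdgfra* at 4.69 FPKM (others 7.43 to 7.68).

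The other distant values were small RNA genes that were listed above 0 in 1 tumor and at 0 in the rest of its group. In Balb/c tumor 56 these were *AF357399* at 82.6, *Mir5113* at 457 and *Mir5131* at 46.9 FPKM, and in Balb/c tumor 58 *Snord35b* at 193 FPKM. In NSG tumor 26 *Mir6239* was at 41.9 and *Mir6418* at 11.3 FPKM, and in NSG tumor 27 *Mir425* was at 568, *Mir692-3* at 25.4 and *Mir7-1* at 33.6 FPKM. In NSG tumor 29 *Mir210* was at 21.6 and *Mir6541* at 21.3 FPKM, and in NSG tumor 30 *Mirlet7f-1* was at 179 and *Snord14a* at 255 FPKM.

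Outside the genes compared, the mean log2 (FPKM + 1) of the 4 Y-linked genes was between 1.9 and 2.37 in the NSG tumors and at most 0.0 in the Balb/c tumors.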

How the results depend on the processing

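In ATRXKD tumors, the 161 higher genes became 336 with a pseudocount of 0.1, 401 with no fold threshold and 82 without the tumors high in keratinocyte genes, and lay between 136 and 177 with 1 tumor left out. The 35 lower genes became 74, 118, 67 with library weights, and 19 without the tumors high in skeletal muscle genes, and lay between 23 (without NSG tumor 30) and 43 with 1 tumor left out. In ATRXCT tumors a pseudocount of 0.1 gave 257 higher and 144 lower, and the lower count lay between 46 (without Balb/c tumor 43, and 48 without NSG tumor 4) and 114 with 1 tumor left out. The interaction gave 117 larger and 71 smaller with library weights, and 0 to 1 of each with 1 tumor left out. Those were *Apoc4* (2.31, adjusted p = 0.0375 in limma) without NSG ATRXKD tumor 26 and *Scarna8* (−3.87, adjusted p = 1.91e-14) without Balb/c ATRXCT tumor 43. The causes of these moves were not tested.

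For 150 named genes under 3111 gene and setting pairs, 2972 kept direction and call, 117 lost the call, 22 gained one and 0 turned sign. Of 1386 list counts, 1284 stayed within 1.5 times. Many lists held no call in the main fit, and their counts could only rise, so this share says little about lists with calls. Of those, MHC class II went from 6 higher genes to 2 without the tumors high in skeletal muscle genes. Without the tumors high in keratinocyte genes it went to 1. Sterol and fatty acid synthesis went from 2 lower genes to 5 with library weights. No paired analysis was possible because the groups share no mouse numbers. Depth limits genes of low FPKM, where 1 fragment moves a value, and the genes listed at 0 have no fold. Host strain, immune deficiency, any difference in host sex and Y-linked transcripts cannot be told apart.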

Other observations

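Beyond the comparison of hosts, the killer cell genes and the collagen gene *Col1a1* varied among the Balb/c tumors without a label that separates them. *Gzmb* was at 12.6, 85.9, 73.7 and 26.5 FPKM in Balb/c tumors 56, 58, 59 and 60, and *Col1a1* at 499, 143, 129 and 134 FPKM in the same order. With 4 tumors no correlation was computed.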
